A study of Mus musculus with 14 samples.

Results

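This account concerns 10 genes that mark the resident macrophages of mouse liver, the Kupffer cells, or the lipid-associated macrophages that appear in fatty tissue: Gpnmb, Cd68, Clec4f, Cd5l, Marco, Vsig4, Adgre1, Csf1r, Lyz2 and Timd4. They were taken by name from 16593 named genes, and every probe that the platform annotation gives them was read in the non-normalized table. The list was chosen by name with earlier results of these same arrays in view, and its rule names level, spread within a diet, diet difference and covariation across mice. All of these are therefore given as a description, and the adjusted p-values printed beside them are those of the fit across all features. Liver RNA was taken from 7 mice on a palatinose diet and 7 on a sucrose diet, all of them male C57Bl/6J kept specific-pathogen-free, and each mouse had 1 Illumina beadchip array. The titles give 22 weeks of feeding for both groups, whereas the age label reads 18 weeks for both. Palatinose and sucrose are isomers of glucose joined to fructose, and palatinose is digested more slowly. Arrays are named by diet and by the code of their column, such as palatinose array PAL_430_01. The labels do not say what the code stands for.

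Kupffer cells line the liver sinusoids and clear particles, bacteria, ageing blood cells and complement-coated material from portal blood. Their survival depends on the CSF1 receptor, and their identity is marked by surface receptors such as the lectin CLEC4F, the complement receptor VSIG4 and the phosphatidylserine receptor TIMD4. In fatty liver, monocyte-derived cells can take up a lipid-associated state marked by GPNMB, TREM2, CD9 and lysosomal genes, and they lack TIMD4 when newly arrived. In bulk liver RNA, fewer cells of a type and less RNA per cell cannot be told apart.

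Of the 10 genes, 8 had a probe that is named here, and no level is given for Cd68 or Csf1r. The 8 genes had 16 probes, of which 10 were kept, that is, detected at a detection p-value under 0.05 on at least 7 of the 14 arrays. The other 6 probes were detected on 0 arrays, and they include the only probe of Cd5l, which encodes a secreted scavenger receptor of macrophages. Cd5l therefore has no measured level in these livers, and deposited intensities of its probe were -6 to 3 with palatinose and -5 to 0 with sucrose. This left 7 genes to describe: Gpnmb, Clec4f, Marco, Vsig4, Adgre1, Lyz2 and Timd4.

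The arrays had mean signals of 190 to 257, and between 11457 and 12476 of 25697 probes were detected on each. On each array 6 to 7 of 8 hepatocyte genes were detected at a detection p-value under 0.01. The named Alb probe was detected on 4 arrays and the Tat probe on 0. Transcripts of skeletal muscle stood out on PAL_407_04, PAL_417_03, PAL_429_03 and SUC_415_02, and those of pancreatic acini on SUC_415_02 and SUC_421_03. The summed intensity of 11 muscle genes was 18 to 7021 with palatinose and 8 to 4288 with sucrose. On PAL_417_02 the summed intensity of 4 B cell genes was 332 and that of 9 T and NK cell genes 171, against at most 77 and 58 on any other array. The diet differences of the macrophage genes are given below with all arrays and without the 5 arrays with muscle or pancreatic transcripts. Leaving these out takes PAL_407_04, PAL_417_03 and PAL_429_03 from palatinose and SUC_415_02 and SUC_421_03 from sucrose. The groups are then smaller and unequal.

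None of the 7 genes passed the test for a difference between palatinose and sucrose livers across all features. With limma 0 of the 7 had an adjusted p under 0.05, against 0.00% of 8829 features, and 0 of the 7 had an unadjusted p under 0.05, against 7.10%. The 2 diets overlapped for each of the 7, whereas 0.125% of features had groups that did not overlap. Values were higher with palatinose for Gpnmb and Clec4f and lower for the other 5, with a median difference of -0.02 log2, against 0.01 over all features. The members varied more between mice of 1 diet than most features did. Their median within-diet standard deviation was 0.708 log2, against 0.183 over all features tested. Clec4f, the lowest of the 7, was at or above 92.3% of features in this spread and Marco, the highest, at or above 99.8%. A wide spread was not particular to the members. It ran from 0.112 to 0.564 log2 over the pan-macrophage and myeloid genes described below. Over the other Kupffer cell genes it was 0.109 to 0.551, and over the other lipid-associated genes 0.181 to 0.595.

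**Figure D1:**
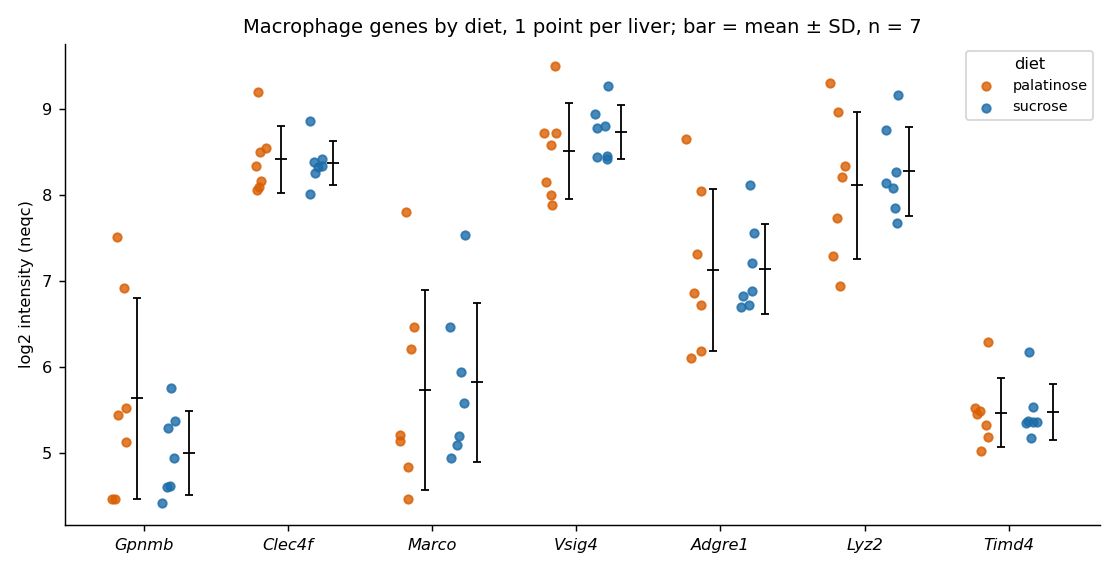
Log2 intensity of the 7 measured macrophage genes, with 1 point for each liver, palatinose left of sucrose and a bar for the mean ± SD (n = 7 each). Levels of different genes come from different probes and cannot be set against each other. The diets overlap for every gene, and the spread within palatinose is the larger for all 7.

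Gpnmb encodes a lysosomal glycoprotein that lipid-laden macrophages express, and its values separated 2 palatinose livers from the other mice. In palatinose livers its log2 intensity ran from 4.46 to 7.51 with a median of 5.44, against 4.42 to 5.76 with a median of 4.94 in sucrose livers. The highest values were 7.51 on PAL_430_01 and 6.91 on PAL_430_04, above every other array of either diet. The mean was 5.63 ± 1.17 with palatinose and 5.00 ± 0.49 with sucrose (SD, n = 7 each), a difference of 0.63 log2 or 1.55-fold (95% interval -0.23 to 1.50, limma adjusted p = 0.756). When the pair of arrays with the code 430 was left out the difference was 0.00, and without PAL_430_01 alone it was 0.32. Without the 5 arrays with muscle or pancreatic transcripts it was 1.08, at a limma adjusted p of 0.417. The palatinose arrays that stayed were PAL_417_02, PAL_418_07, PAL_430_01 and PAL_430_04, so the 2 high livers weighed more in that value. The probe, ILMN_2648669, was detected on 5 arrays of each diet, at deposited intensities of 5 to 167 with palatinose and 4 to 40 with sucrose. The offset of 16 that was added before the log draws such a dim difference toward 0, and the other 3 probes of Gpnmb were detected on 0 arrays.

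Trem2, for a lipid-sensing receptor of the same macrophage state, did not pass the filter, and it is named here because its values were seen to resemble those of Gpnmb. Its probe was detected on 3 palatinose and 2 sucrose arrays. The deposited intensity of Trem2 was 42 on PAL_430_01 and 32 on PAL_430_04, against 4 to 18 on the other 12 arrays.

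Clec4f, for the lectin that marks Kupffer cells in mouse, varied least among the 7 genes. Its log2 intensity (probe ILMN_2702159) was 8.05 to 9.19 with a median of 8.34 in palatinose livers, against 8.01 to 8.86 with a median of 8.34 in sucrose livers. PAL_430_01 was the highest array. SUC_424_02 was the lowest after normalization, although its deposited intensity of 310 was the sucrose median. The mean was 8.41 ± 0.39 with palatinose and 8.37 ± 0.25 with sucrose (SD, n = 7 each), a difference of 0.04 (95% interval -0.29 to 0.38, limma adjusted p = 0.960) that was -0.09 without PAL_430_01 and 0.21 without the 5 arrays with muscle or pancreatic transcripts. A second probe, with intensities of 7 to 32 with palatinose and 6 to 27 with sucrose, gave a difference of -0.02. On this probe SUC_424_02 was the highest of the sucrose arrays, at 5.21. The 2 probes tracked each other loosely across the 14 livers after subtraction of the diet means, at a Pearson r of 0.51 and a Spearman rho of 0.17.

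Vsig4 encodes a complement receptor through which Kupffer cells capture circulating bacteria. Its log2 intensity (probe ILMN_1241350) was 7.88 to 9.50 with a median of 8.58 in palatinose livers, against 8.42 to 9.27 with a median of 8.78 in sucrose livers. The 3 lowest arrays were palatinose arrays and so was the highest, PAL_430_01. The mean was 8.51 ± 0.56 with palatinose and 8.73 ± 0.32 with sucrose (SD, n = 7 each). The difference of -0.22 (95% interval -0.67 to 0.22, limma adjusted p = 0.829) was -0.39 without PAL_430_01 and -0.47 without both arrays with the code 430. Without the 5 arrays with muscle or pancreatic transcripts it was -0.11.

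Adgre1 encodes F4/80, the surface antigen used to identify mouse macrophages. Its log2 intensity (probe ILMN_1216880) was 6.10 to 8.65 with a median of 6.87 in palatinose livers, against 6.70 to 8.11 with a median of 6.88 in sucrose livers. Palatinose arrays held both ends, with PAL_430_01 the highest and PAL_429_03 the lowest. The mean was 7.13 ± 0.94 with palatinose and 7.14 ± 0.53 with sucrose (SD, n = 7 each), a difference of -0.02 (95% interval -0.76 to 0.72, limma adjusted p = 0.995). That difference was -0.27 without PAL_430_01 and 0.15 without PAL_429_03, and it was 0.094 without the 5 arrays with muscle or pancreatic transcripts. A second kept probe gave -0.07 and followed the first closely (r = 0.93, rho = 0.94 over 14 arrays).

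Lyz2 encodes the lysozyme of macrophages and granulocytes. Its log2 intensity (probe ILMN_1252076) was 6.94 to 9.30 with a median of 8.21 in palatinose livers, against 7.67 to 9.16 with a median of 8.13 in sucrose livers. PAL_430_01 and SUC_408_02 were the highest arrays, followed by PAL_417_02, the array with B and T cell transcripts. The mean was 8.11 ± 0.86 with palatinose and 8.27 ± 0.52 with sucrose (SD, n = 7 each), a difference of -0.16 (95% interval -0.85 to 0.53, limma adjusted p = 0.925). The difference was 0.03 without PAL_429_03 and 0.13 without the 5 arrays with muscle or pancreatic transcripts. The second kept probe gave 0.16, the opposite sign, although both probes moved together across livers (r = 0.93, rho = 0.96). Lyz1, the adjacent paralogue expressed in Paneth cells, had 1 kept probe that followed Lyz2 at r = 0.97. The other 2 Lyz1 probes were detected on 1 and 2 arrays, and since probe sequences were not used here, signal of these paralogues cannot be told apart.

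Marco, for a scavenger receptor that binds bacteria and particles, had deposited intensities of 5 to 210 with palatinose and 14 to 167 with sucrose, and its probe was not detected on PAL_429_03. Its log2 intensity (probe ILMN_1229922) was 4.46 to 7.80 with a median of 5.21 in palatinose livers, against 4.95 to 7.54 with a median of 5.58 in sucrose livers. PAL_417_03 and SUC_408_02 stood above the others. The mean was 5.73 ± 1.16 with palatinose and 5.82 ± 0.92 with sucrose (SD, n = 7 each), a difference of -0.09 (95% interval -1.10 to 0.92, limma adjusted p = 0.970). The difference was -0.44 without PAL_417_03 and 0.19 without SUC_408_02, and it was -0.45 without the 5 arrays with muscle or pancreatic transcripts, which hold both the highest and the lowest liver.

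Timd4, for the receptor of long-lived resident macrophages that recognises phosphatidylserine on dying cells, was high on the same 2 arrays. Its log2 intensity (probe ILMN_2589057) was 5.02 to 6.29 with a median of 5.45 in palatinose livers, against 5.18 to 6.17 with a median of 5.36 in sucrose livers. PAL_417_03 had 6.29 and SUC_408_02 had 6.17, and no other array exceeded 5.53. The mean was 5.47 ± 0.40 with palatinose and 5.47 ± 0.33 with sucrose (SD, n = 7 each), a difference of -0.01 (95% interval -0.37 to 0.36, limma adjusted p = 0.996). It was -0.14 without PAL_417_03 and 0.11 without SUC_408_02, and -0.043 without the 5 arrays with muscle or pancreatic transcripts. Deposited intensities of 16 to 63 with palatinose and 19 to 55 with sucrose are dim, and the offset draws this difference toward 0 as well.

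**Figure D2:**
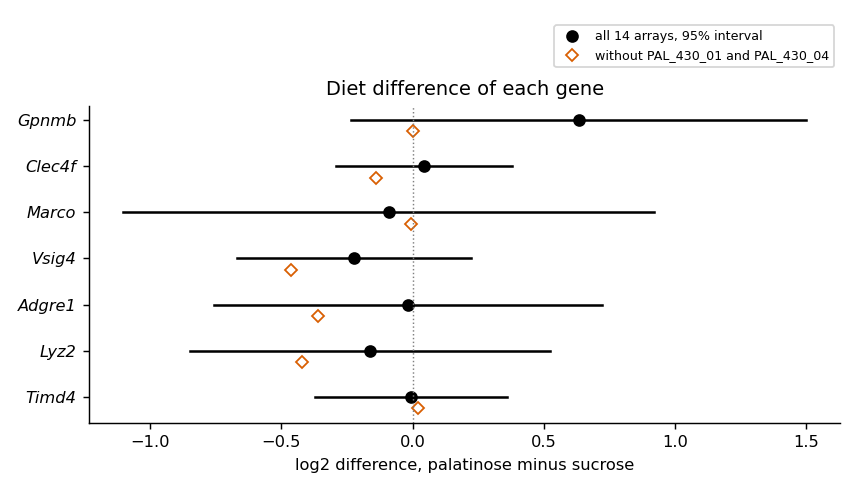
Log2 difference, palatinose minus sucrose, of each gene: filled points with lines are the estimate and 95% interval over all 14 arrays, and open diamonds the estimate without PAL_430_01 and PAL_430_04. All intervals include 0, and the Gpnmb estimate is 0.63 with all arrays and 0.00 without those 2.

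The standard deviation of all 7 genes was larger with palatinose than with sucrose, with medians of 0.856 and 0.491 log2. Over all features 40.1% had the larger standard deviation with palatinose. Without PAL_430_01 this held for 6 of the 7 genes, at medians of 0.727 with palatinose and 0.491 with sucrose, and for 35.8% of features. The exception was Clec4f, whose standard deviation with palatinose was then 0.21. Other macrophage genes described below went both ways. The standard deviation was larger with palatinose than with sucrose for Coro1a (0.731 and 0.269), Lpl (0.730 and 0.418) and Cd63 (0.650 and 0.459). It was smaller for Mrc1 (0.264 and 0.284) and Nr1h3 (0.091 and 0.125). The larger spread with palatinose was thus not particular to the 7 genes, and the difference in spread between the diets was not tested.

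The same few livers were high or low for most of the genes. PAL_430_01 was the highest array for 5 of the 7 genes, all but Marco and Timd4. SUC_408_02 was among the 3 highest for 6, all but Gpnmb. PAL_429_03 was among the 3 lowest for 7 and PAL_407_04 for 5. These 2 low arrays also carried summed muscle intensities of 7021 and 3125, and PAL_417_03, the highest for Marco and Timd4, one of 896. The part of that admixture in these values was not tested, and the differences without the muscle and pancreas arrays stand beside each gene above.

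Covariation was measured as the Pearson r of log2 intensities across the 14 arrays after subtraction of each diet's mean. Arrays share their normalization, and the correlations carry no p because covariation was part of how the genes were chosen. The median r of the 21 gene pairs was 0.64, against 0.00 over all pairs of features. Of the 21 pairs 20 had an r above 0, against 50.2% of all pairs, and 13 had an r over 0.6, against 4.18%. Within palatinose livers 19 of the 21 pairs had an r above 0 and within sucrose livers 21. The median r was 0.57 without the 5 arrays with muscle or pancreatic transcripts and 0.55 without PAL_430_01.

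**Figure D3:**
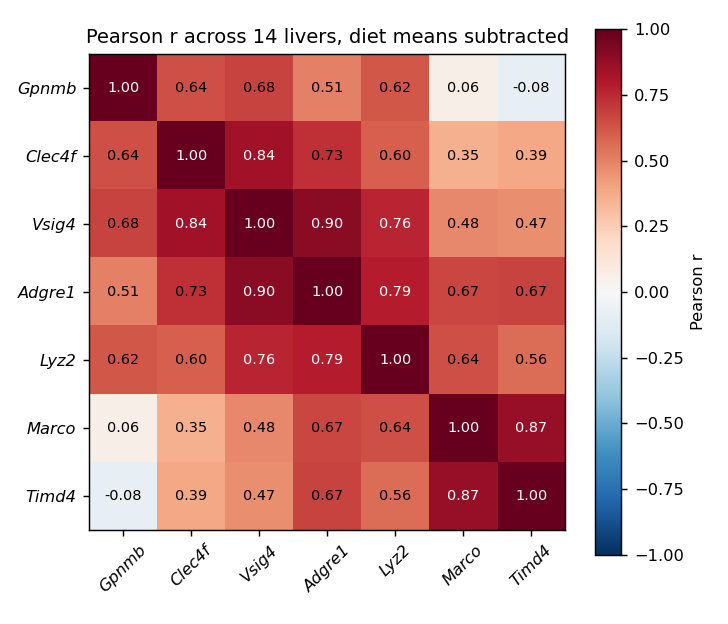
Pearson r of each gene pair across 14 livers after subtraction of the diet means. Vsig4 with Adgre1 (0.90) and Marco with Timd4 (0.87) are the highest, and Gpnmb with Marco (0.06) and with Timd4 (-0.08) the lowest.

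The general macrophage gene Adgre1 and the Kupffer cell gene Vsig4 moved together most closely. Their r was 0.90 (rho = 0.90), with 0.94 within palatinose and 0.77 within sucrose livers. Leaving out the 2 arrays farthest from the Vsig4 median, PAL_430_01 and PAL_407_04, left an r of 0.81. Clec4f followed Vsig4 at r = 0.84 (rho = 0.72), with 0.96 within palatinose and 0.51 within sucrose livers, and at 0.53 without PAL_430_01 and SUC_408_02, the farthest from the Clec4f median. Lyz2 followed Adgre1 at r = 0.79 and Vsig4 at r = 0.76. Without PAL_417_02 these were 0.93 and 0.95. On that array Lyz2 was the third highest of 14 while Vsig4 was 8.15, the lowest but 2.

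Marco and Timd4 had an r of 0.87 (rho = 0.73), with 0.93 within palatinose and 0.77 within sucrose livers. Without the 2 arrays farthest from the Marco median, PAL_417_03 and SUC_408_02, the r was 0.57, so part of its size rests on those 2 livers. Marco followed Adgre1 at r = 0.67 and Vsig4 at 0.48, and without the 5 arrays with muscle or pancreatic transcripts at 0.45 and 0.26. Without those 5 the r of Marco with Timd4 was 0.82, that of Vsig4 with Adgre1 0.88 and with Clec4f 0.85, and those of Lyz2 with Adgre1 and Vsig4 were 0.69 and 0.57.

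Across all 14 arrays Gpnmb stood apart from Marco and Timd4. Its r was 0.06 with Marco (rho = 0.14) and -0.08 with Timd4 (rho = -0.01). In contrast, it was 0.68 with Vsig4 (rho = 0.55), 0.64 with Clec4f (rho = 0.50), 0.62 with Lyz2 (rho = 0.63) and 0.51 with Adgre1 (rho = 0.44). Over the 7 arrays of each diet its r with Marco was -0.11 within palatinose and 0.59 within sucrose livers, and with Timd4 -0.18 and 0.19. Whether the diets differ in this was not tested. PAL_417_03, the highest liver for Marco and Timd4, was at 4.46 for Gpnmb, whose probe was not detected there, and without it the r of Gpnmb was 0.43 with Marco and 0.30 with Timd4. Without PAL_430_01 and PAL_430_04, the 2 arrays farthest from the Gpnmb median, its r was 0.23 with Vsig4, 0.06 with Clec4f, 0.48 with Lyz2 and 0.00 with Adgre1. The correlations of Gpnmb with Clec4f and Adgre1 over all arrays therefore rest largely on those 2 livers, and that with Lyz2 less so. Within the sucrose livers alone the r of Gpnmb was 0.73 with Vsig4, 0.67 with Lyz2, 0.38 with Adgre1 and 0.13 with Clec4f. The correlation with Vsig4 was thus also seen in the diet that does not hold those 2 livers. Without the 5 arrays with muscle or pancreatic transcripts, PAL_430_01 and PAL_430_04 were kept. The r of Gpnmb was then 0.75 with Vsig4, 0.67 with Adgre1, 0.58 with Clec4f, 0.52 with Lyz2, 0.13 with Marco and 0.02 with Timd4.

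**Figure D4:**
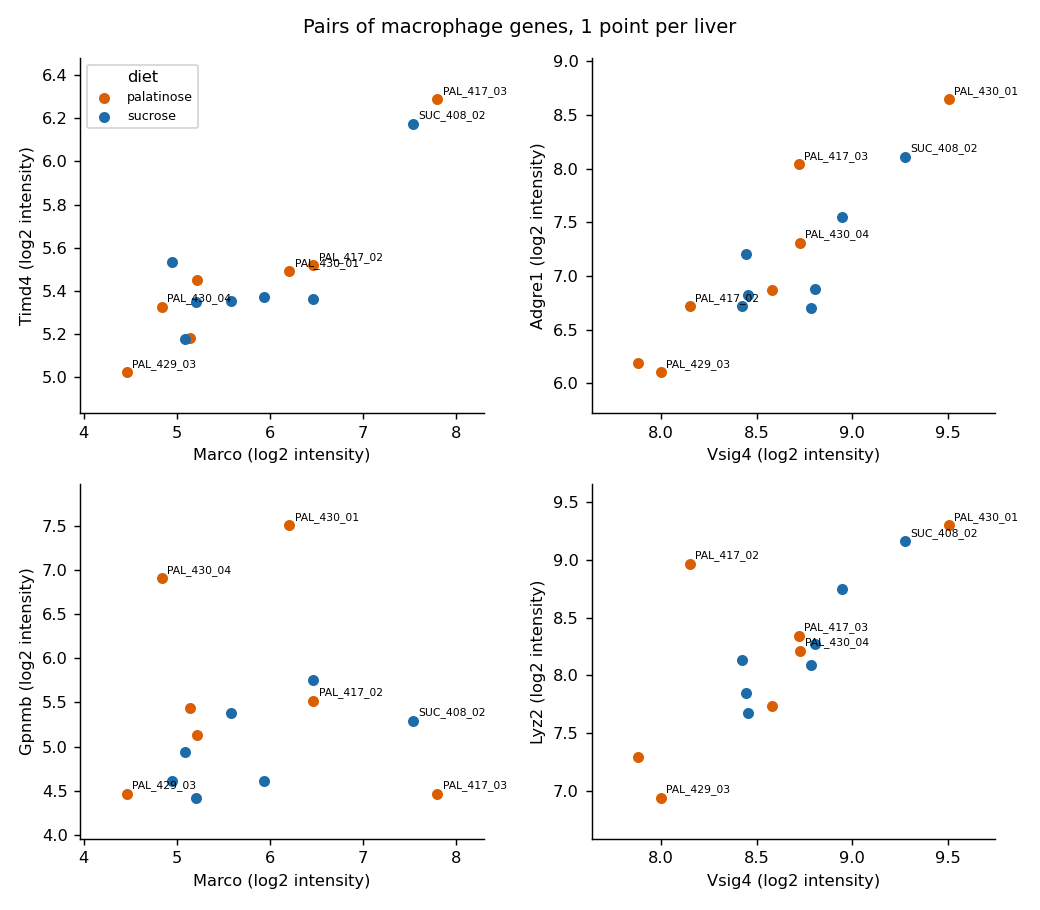
Log2 intensities of 4 gene pairs with 1 point for each liver, palatinose and sucrose in different colours, and arrays named in the text labelled. PAL_417_03 and SUC_408_02 are high for both Marco and Timd4, PAL_430_01 and PAL_430_04 are high for Gpnmb, and PAL_417_02 lies above the other livers for Lyz2 at its Vsig4 level.

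Promoter windows are shown for Vsig4, for the pair Marco and Timd4 that moved together, and for Gpnmb, which departed from that pair across all 14 arrays. Each runs from 250 bases before to 50 bases after the annotated start, 5′ to 3′ on the strand of the gene, from RefSeq on GRCm38.p6. Capitals mark GAGGAA, the core of many sites of the myeloid factor PU.1, and CATGTG, an E-box that MITF and TFE factors can bind, on either strand.
Vsig4, chrX:96293389-96293688, minus strand: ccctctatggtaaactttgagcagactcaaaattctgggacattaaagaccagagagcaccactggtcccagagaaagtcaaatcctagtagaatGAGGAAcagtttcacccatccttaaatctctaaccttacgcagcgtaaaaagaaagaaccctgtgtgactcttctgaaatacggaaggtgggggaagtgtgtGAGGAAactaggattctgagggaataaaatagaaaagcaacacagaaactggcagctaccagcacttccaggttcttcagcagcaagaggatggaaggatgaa
Marco, chr1:120504975-120505274, minus strand: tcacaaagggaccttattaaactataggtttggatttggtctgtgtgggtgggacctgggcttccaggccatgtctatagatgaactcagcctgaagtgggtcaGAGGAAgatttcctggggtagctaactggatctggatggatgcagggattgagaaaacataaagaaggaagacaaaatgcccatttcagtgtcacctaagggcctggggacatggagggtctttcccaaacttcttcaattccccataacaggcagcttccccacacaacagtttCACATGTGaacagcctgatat
Timd4, chr11:46810549-46810848, plus strand: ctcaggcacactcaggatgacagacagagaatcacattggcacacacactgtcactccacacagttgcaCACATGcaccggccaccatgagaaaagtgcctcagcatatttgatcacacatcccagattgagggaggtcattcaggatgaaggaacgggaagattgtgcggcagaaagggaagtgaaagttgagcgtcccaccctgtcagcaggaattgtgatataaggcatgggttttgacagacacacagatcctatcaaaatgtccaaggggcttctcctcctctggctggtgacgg
Gpnmb, chr6:49036268-49036567, plus strand: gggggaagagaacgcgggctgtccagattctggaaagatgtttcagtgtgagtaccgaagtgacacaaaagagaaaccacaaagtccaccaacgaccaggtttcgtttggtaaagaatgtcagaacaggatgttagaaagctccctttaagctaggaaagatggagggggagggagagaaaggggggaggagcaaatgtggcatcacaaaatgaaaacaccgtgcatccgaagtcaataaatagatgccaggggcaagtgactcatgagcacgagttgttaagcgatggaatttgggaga

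Windows of 8 of the 10 genes were searched. Csf1r was left out of the search in advance, and Adgre1 was not among the windows searched. GAGGAA was present in the windows of Cd68, Cd5l, Marco and Vsig4, that is 4 of 8, against 28.3% of 32851 windows of the same length. CATGTG was present in 2, Marco and Timd4, against 14.2% of windows. In the Marco window it lies on both strands at bases 280 to 285 and 282 to 287, which overlap. In the Timd4 window it lies on the opposite strand at bases 70 to 75. CACGTG, another E-box, was present in 0 of the 8 windows, against 7.15% of all. A match describes the letters in the window and shows no binding.

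Other macrophage genes were read from lists that were also chosen with earlier results known. Over 5 lists of macrophage and monocyte genes 43 genes were tested, of which 31 were higher and 12 lower with palatinose. With limma 0 of the 43 were called, and 3 (Slc40a1, Nr1h3 and Mertk) had an unadjusted p under 0.05, against 7.10% of features. Over all features 54.8% were higher with palatinose. The median difference of the 43 was 0.07 log2. Of 15 tested Kupffer cell genes 10 were higher and 5 lower (Slc40a1, Cd163, Fcna, Slc11a1 and Ctsc), with a median of 0.02. Slc40a1, for the iron exporter ferroportin that Kupffer cells use to return iron from red cells, averaged 10.92 ± 0.16 with palatinose and 11.28 ± 0.17 with sucrose (SD, n = 7 each), a difference of -0.36 (limma adjusted p = 0.575). Nr1h3, the nuclear receptor LXR alpha of Kupffer cell identity, gave 0.18 (limma adjusted p = 0.681), the haemoglobin receptor gene Cd163 -0.17 and the ficolin gene Fcna -0.12. Hepatocytes also express Slc40a1 and Nr1h3.

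Of 9 tested genes of the lipid-associated state 8 were higher and 1, the protease gene Ctsl, lower with palatinose, 0 were called and the median difference was 0.10. The summed deposited intensity of this list was 8472 on PAL_430_01 and 7337 on PAL_430_04, against 4947 to 5858 on the other palatinose arrays. With sucrose it was 8637 on SUC_424_02 and 4683 to 6237 on the others. These sums are not normalized, and SUC_424_02 had a mean signal of 257, against at most 215 on any other array. Such a sum weighs bright genes most. The protease gene Ctsb averaged 12.13 log2 with palatinose and 12.07 with sucrose, against at most 8.98 and 8.96 for any other tested gene of the list. The sum therefore mostly follows Ctsb and does not read the list as a whole. How far the diet differences of these genes rest on PAL_430_01 and PAL_430_04 was not tested. The actin-capping gene Capg gave 0.30 (limma adjusted p = 0.746), the lysosomal protease gene Ctsd 0.10, the tetraspanin gene Cd63 0.27 and the lipoprotein lipase gene Lpl 0.26. In the CSF1 receptor axis 2 were higher and 2 lower of 4 tested, and 0 were called. Csf1, the ligand of the receptor, gave 0.11, and the transcription factor genes Cebpa, Cebpb and Irf8 gave -0.16, -0.16 and 0.17. Spi1, which encodes PU.1, was detected on 5 arrays and was not tested.

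Of 14 tested pan-macrophage and myeloid genes 11 were higher and 3 lower (Mertk, Mrc1 and Cd14), 0 were called and the median difference was 0.14. The engulfment receptor gene Mertk gave -0.16 (95% interval -0.31 to -0.01, limma adjusted p = 0.690), the mannose receptor gene Mrc1 -0.24, the actin regulator gene Coro1a 0.46 and Unc93b1, which traffics Toll-like receptors, 0.16. Coro1a is also expressed by lymphocytes. Of the list for recruited monocytes only Plac8 was tested, at -0.34 (limma adjusted p = 0.860), and the probes of the monocyte genes Ccr2 and Itgam were detected on 0 arrays. All 4 tested inflammatory mediators were higher with palatinose and 0 were called: the chemokine genes Ccl4 at 0.34, Cxcl10 at 0.18 and Ccl5 at 0.06, and the cytokine gene Il1b at 0.29 (95% interval -0.06 to 0.63, limma adjusted p = 0.728). Of the neutrophil list 3 were tested and 0 called, with S100a9 at 0.30, Elane at 0.18 and S100a8 at 0.00.

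All 7 genes had higher median correlations with the pan-macrophage and myeloid list than with the lists for sinusoidal endothelium and hepatocytes, but the neutrophil and inflammatory lists came closer. With 3 neutrophil genes the median r was 0.37 for Marco at the lowest and 0.64 for Vsig4 at the highest, and for Gpnmb it was 0.58 against 0.57 with the pan-macrophage list. With 4 inflammatory mediators it was 0.40 for Gpnmb at the lowest and 0.77 for Lyz2 at the highest, against 0.75 for Lyz2 with the pan-macrophage list. With the 14 pan-macrophage and myeloid genes the median r was 0.51 for Timd4 at the lowest and 0.78 for Vsig4 at the highest, and every one of the 14 had an r above 0 with every one of the 7. With the 15 other Kupffer cell genes the median r was 0.31 for Gpnmb and 0.57 to 0.78 for the other 6. With 10 sinusoidal endothelial genes it was 0.17 to 0.29, and with 6 hepatocyte genes 0.02 to 0.23. With 3 cholangiocyte genes it was -0.21 for Marco at the lowest, -0.02 for Timd4, 0.45 for Clec4f and 0.49 for Gpnmb at the highest. Over all features the medians lay between -0.03 and 0.02. The Kupffer cell list was not uniform, since Cd163 had an r of -0.27 with Gpnmb and of -0.42 with Lyz2.

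The genes parted on the lipid-associated and stellate cell lists. With 9 other genes of the lipid-associated state the median r was 0.59 for Gpnmb and 0.64 for Vsig4, but 0.19 for Marco and 0.10 for Timd4. The members of the list did not move as one: Cd63, the highest with Gpnmb, had an r of 0.80 with Gpnmb and of -0.21 with Marco, Capg had 0.59 and 0.53, and Ctsd -0.37 and 0.41. With 8 stellate cell genes the median r was 0.53 for Gpnmb, -0.36 for Marco and -0.35 for Timd4, and 0 of the 8 had an r above 0 with Marco or with Timd4. These differences between the genes were not tested.

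**Figure D5:**
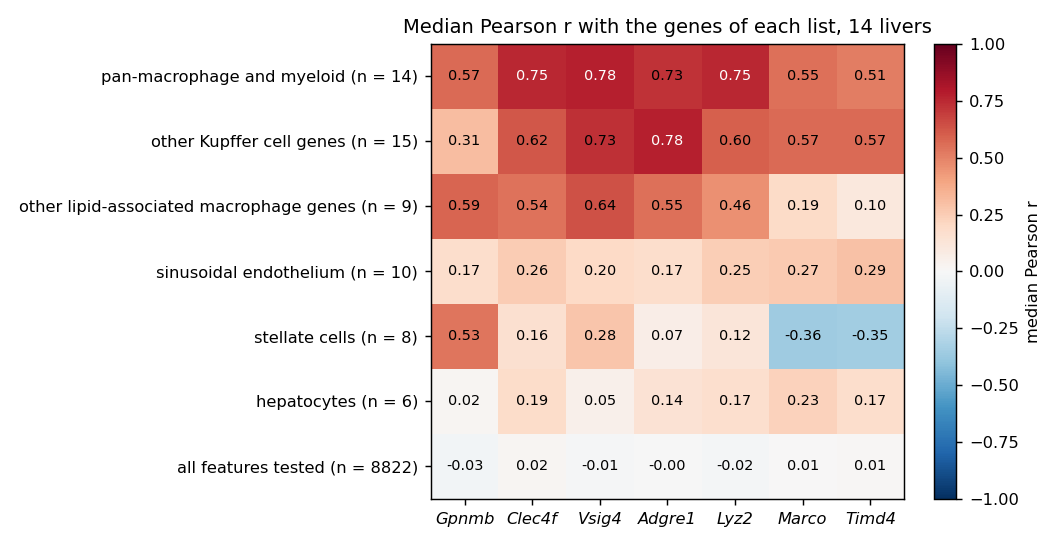
Median Pearson r, across 14 livers with diet means subtracted, of each gene (columns) with the tested genes of each list (down the page, with n genes). The 3 macrophage lists drawn have medians from 0.10 to 0.78, all features tested between -0.03 and 0.02, and the stellate list is at 0.53 for Gpnmb and below 0 for Marco and Timd4.

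For each of the 7 genes the 3 named genes outside the group with the highest r over the 14 arrays were listed as a description, leaving out probes with no gene name here. Those nearest to Vsig4 were Clec4b1, a C-type lectin gene (r = 0.96), C1qc, a subunit of complement C1q (0.95), and Cd207, for langerin (0.95). Those nearest to Adgre1 were Cd44, for the hyaluronan receptor (0.94), Lst1 (0.94) and Ms4a6d (0.93). Those nearest to Lyz2 were Fgd2, an exchange factor for Cdc42 (0.97), its paralogue Lyz1 (0.97) and Fxyd5 (0.95). For these 9 genes the r was between 0.85 and 0.96 without the 2 arrays farthest from the median of Vsig4, Adgre1 or Lyz2.

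Nearest to Marco were Fpr2, a formyl peptide receptor gene (r = 0.86), Rac2, a GTPase gene of blood cells (0.86), and Spic, a transcription factor gene of iron-recycling macrophages (0.86), at 0.78, 0.82 and 0.57 without the 2 farthest arrays. Spic was also nearest to Timd4 (r = 0.88, rho = 0.49), at 0.46 without the 2 farthest arrays. The other genes nearest to Timd4, Trim33 (r = 0.82) and Top3a (0.81), had an r of 0.08 and 0.35 without them. Nearest to Clec4f were Ifitm2 (0.93), Qprt of NAD synthesis (0.91) and the proton pump gene Atp6v1b2 (0.91), at 0.69, 0.69 and 0.63 without the 2 farthest arrays. Nearest to Gpnmb were Ttc39a (r = 0.96), Csprs (0.92) and Ly6d, of the Ly6 surface protein family (0.92), and these kept 0.85, 0.90 and 0.79 without PAL_430_01 and PAL_430_04. The lipid droplet gene Cidea had an r of 0.12 with Gpnmb, -0.46 with Marco and -0.59 with Timd4.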

How the data were processed

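The deposited non-normalized table pairs a bead intensity with a detection p-value for every probe on every array, per the file headers. Values below 0 make up 23.0% to 26.4% of each array, as background subtraction leaves. The authors' series table holds normalized intensities on a linear scale, with column medians of 21 in every sample. The labels do not name the method. From the deposited intensities, neqc (limma 3.58.1, R 4.3.3) gave log2 values: it estimated background through the detection p-values, added an offset of 16 and normalized by quantiles. Probes detected at p under 0.05 on at least 7 of 14 arrays were kept (11628), and the brightest kept probe stood for its gene, giving 8829 features. Probes were named by the platform annotation: 23978 carry 1 symbol and 1719 are unnamed here. Diet differences were fitted by lmFit and eBayes, two-sided, palatinose minus sucrose, with Benjamini-Hochberg adjustment over all features. The procedure was run on simulated features drawn independently of each other. That run does not show what difference could be found in genes that spread and covary as the members do. The non-normalized columns name only a diet, so no array there carries a replicate number. Labels call the samples biological replicates. The members, the lists and the tests were chosen with earlier results of these data known. Named genes are all members, up to 4 genes by smallest p of each of 5 lists, and the 3 genes nearest to each member. Of the inflammatory and neutrophil lists every tested gene is named. Trem2, Cidea, Cd163, Cd63, Capg and Ctsd as correlates, Slc11a1, Ctsc, Cd14 and Ctsl as lower members of lists, Atg2a as a call of 1 alternative, and Alb, Tat, Spi1, Ccr2 and Itgam as detection checks were named after their values were seen. So were Ctsb, as the brightest tested gene of a list, and Coro1a, Cd63, Lpl, Mrc1 and Nr1h3 as examples of spread by diet. Alternatives were other background, normalization, filter, probe, moderation and weight settings, the authors' values with and without a replicate block, and leaving out each array. Without the 5 arrays with muscle or pancreatic transcripts, and without the 2 with the code 430, were added after the data were seen. On arrays there are no counts, and their number limits the precision.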

Additional observations from a re-analysis of the deposited data

Results flagged for a closer look

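Timd4 had 1 liver far above the others of its group in both diets. With palatinose PAL_417_03 was at a log2 intensity of 6.29, and its gap to the next array was 0.609 of the whole range of the 7 arrays. With sucrose SUC_408_02 was at 6.17, with a gap of 0.646 of the range. Both exceed Dixon's 95% critical value for 7 samples. Of the 14 groups examined, 7 genes in each diet, no other array did, and chance gives such a value in about 1 group of 20.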

How the results depend on the processing

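No member was called under any of the 27 alternatives, and features were called only without the filter on dim probes, where 1, the autophagy gene Atg2a, passed at a difference of 0.30 (limma adjusted p = 0.0314). The direction of Gpnmb held in 27 alternatives and that of Vsig4 in 28, at 0.32 to 0.83 and -0.39 to -0.12 over the left-out arrays, with Gpnmb at 0.00 without both arrays with the code 430. Some of these alternatives could not turn a direction. Leaving out the filter, averaging kept probes, other moderation and an exact permutation test left both estimates unchanged. Directions of the other genes, all with differences under 0.2 log2, turned under some settings. Timd4 gave 0.000191 with cyclic loess, 6.08e-05 with the authors' values and the same 6.08e-05 with the replicate block, 0.000889 with an offset of 50, 0.10 with array weights and 0.019 without both arrays with the code 430. Adgre1 gave 0.013 with an offset of 50, 0.072 with array weights and 0.094 without the 5 arrays with muscle or pancreatic transcripts, and Lyz2 gave 0.13 without these 5. Clec4f gave -0.032 with array weights and -0.14 without both arrays with the code 430, and Marco 0.091 with array weights. Over the left-out arrays Clec4f ran from -0.087 to 0.12, Marco from -0.44 to 0.19, Adgre1 from -0.27 to 0.15, Lyz2 from -0.36 to 0.034 and Timd4 from -0.14 to 0.11. The cause was not tested.

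The median within-diet standard deviation of 0.708 was 0.558 with an offset of 50, which compresses dim probes, 0.453 with the stricter filter, which leaves out Gpnmb and Marco, and 0.499 without both arrays with the code 430. It was 0.626 to 0.739 over the left-out arrays. The median pairwise r of 0.64 was 0.55 to 0.69 over the left-out arrays and 0.55 to 0.70 over the other alternatives, Spearman's rho among them. In the authors' table same-numbered samples deviated together at r of -0.19 to 0.17, and 1 of 7 palatinose samples correlated best with its own number. No pairing by number was seen, although such values cannot exclude one. The replicate block added no call to the 0 found without it. Gpnmb, Timd4 and most Marco signals lie near the background, which limits what their differences can show.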
